A study of Homo sapiens with 24 samples.

Results

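The genes described here are the inhibitors of cyclin-dependent kinases, CDKN1A, CDKN1B, CDKN1C, CDKN2A, CDKN2B, CDKN2C and CDKN2D, together with MYC. They were chosen by name, and every array probe whose RefSeq accession belonged to 1 of them was taken, which gave 10 probes among the 58201 non-control probes of the array and 8 genes among the 22439 that could be named. CDKN1B and CDKN2A had 2 probes each and the other 6 genes had 1.

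The study profiled RNA from a pair of human hepatocellular carcinoma (HCC) cell lines, PLC/PRF/5 and SNU-449, on 24 one-colour Agilent arrays. Cells of each line were starved of serum overnight and then left untreated (control), given TGFb at 1 ng/mL, given Galunisertib at 10 µM, or given both (TGFb + Galunisertib) for 16 h, with 3 independent cultures in each of the 8 groups. Galunisertib (LY2157299) is a small molecule that blocks the kinase of the type I TGFb receptor. Each is a single established line, so a difference between them is one between these lines and not between classes of tumour.

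The kinase inhibitors fall into a pair of families. The INK4 proteins, p16 and its alternative product ARF (CDKN2A), p15 (CDKN2B), p18 (CDKN2C) and p19 (CDKN2D), bind CDK4 and CDK6 and keep them from cyclin D, apart from ARF, which acts on MDM2 and p53. The CIP/KIP proteins, p21 (CDKN1A), p27 (CDKN1B) and p57 (CDKN1C), bind complexes of cyclins with CDKs. MYC is a transcription factor that drives growth and division, and textbook accounts of epithelial cells describe TGFb as raising p15 and p21 and lowering MYC.

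Levels are given as log2 of a probe's processed signal over the 75th percentile of its own array, so that 0 is the brightness of that percentile. A floor was set at 5.70% of the percentile, a log2 level of -4.13, and values on it carry no order. Levels of different probes are not comparable with each other. The 75th percentile itself ran from 145 to 262 intensity units over the 24 arrays, the lowest being the first PLC/PRF/5 control. The share of probes that stood well above background ran from 41.6% to 49.6%. Most hepatocyte markers were brighter in PLC/PRF/5, with 9 of 9 genes well above background on all PLC/PRF/5 arrays, while in SNU-449 5 of 9 were and APOB, TF and HNF4A were on none. FGB went the other way, with a mean log2 level of 4.11 in SNU-449 and 1.73 in PLC/PRF/5. Of 8 known TGFb response genes, 4 rose and 3 fell with TGFb in PLC/PRF/5, and 5 rose in SNU-449, where 2 or 3 rose when any 1 of the 6 arrays was left out. Of all probes, 10.5% passed with TGFb in PLC/PRF/5 and 8.22% in SNU-449. Replicate number was also the slide, and each group sat at the same position on every slide, so position cannot be told apart from treatment. In RNA of whole cultures, fewer cells of a kind and less RNA per cell cannot be told apart either.

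CDKN2A and CDKN2B lie side by side on chromosome 9, and the p16 probe of CDKN2A had the widest difference of the 10 probes between the untreated lines. RefSeq promoter windows (GRCh38.p14, 250 bases before to 50 bases after a transcript start) were matched by symbol for 6 of the 8 genes. The windows of the p16 start of CDKN2A, at chr9:21974808-21975107, and of CDKN2B, at chr9:22009256-22009555, both on the minus strand, are shown because the p16 probe and the CDKN2B probe were at the floor throughout SNU-449. The p16 probe is named by its accession only, and the other CDKN2A probe was bright in SNU-449. Which start gave the RNA that either probe reads was not tested. Capitals mark the GC box GGGCGG on either strand, which Sp1-family factors are known to bind.
CDKN2A p16 start: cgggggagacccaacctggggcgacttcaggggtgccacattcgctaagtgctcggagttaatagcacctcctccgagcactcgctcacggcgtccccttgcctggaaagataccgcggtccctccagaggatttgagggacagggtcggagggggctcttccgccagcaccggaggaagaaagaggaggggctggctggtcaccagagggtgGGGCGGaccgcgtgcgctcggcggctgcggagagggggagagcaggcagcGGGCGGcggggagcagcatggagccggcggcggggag
CDKN2B: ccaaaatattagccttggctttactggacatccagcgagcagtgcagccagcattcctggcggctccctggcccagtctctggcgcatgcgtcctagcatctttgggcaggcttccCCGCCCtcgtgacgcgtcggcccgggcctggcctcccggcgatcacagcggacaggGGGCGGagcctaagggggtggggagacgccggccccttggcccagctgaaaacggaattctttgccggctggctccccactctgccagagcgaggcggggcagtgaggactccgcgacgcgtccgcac
Each window held 2 GC boxes. Of 35116 windows of 300 bases in the RefSeq table, 45% held at least 1 GC box. The SMAD box CAGAC, found in 45.3% of windows on either strand, and the E-box CACGTG, found in 7.26%, occurred 0 times in these 2 windows. The window of the other CDKN2A start, not shown, held 0 GC boxes and 1 SMAD box. These matches describe letters only, and the arrays do not measure binding.

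The CDKN2A probe of accession NM_000077, the p16 transcript, separated the lines completely. In PLC/PRF/5 controls its log2 level was 2.22, 2.09 and 2.08, and on every one of the 12 SNU-449 arrays it was at the floor of -4.13 and not well above background. PLC/PRF/5 controls were therefore at least 73.1-fold brighter. The SNU-449 values are the floor itself and have no spread. No p-value is therefore given for this probe, or below for CDKN2B, MTAP and DMRTA1 between the untreated lines. At baseline 7 of the 10 probes passed an adjusted p of 0.05, against 65.4% of the 29304 probes tested, a share close to the background of this comparison. The 7 include this probe and that of CDKN2B, each compared with a constant floor. At the study's limits, a fold above 2 with P below 0.001, 5 passed, this probe among them, against 33.2%.

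The second CDKN2A probe, of accession NM_058197, gave another picture. It was bright in both lines, at 4.66, 4.76 and 4.44 in PLC/PRF/5 controls and 2.73, 2.98 and 2.86 in SNU-449 controls, a log2 difference of 1.77 (SE 0.14, adjusted p = 8.4e-10). The 2 probes of 1 gene thus disagreed in SNU-449, where 1 was at the floor on 12 of 12 arrays and the other was at 2.50 to 3.20. The files used here hold no probe sequences, so the exons that each probe reads are not given here and the cause of the disagreement was not tested.

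CDKN2B, the gene of p15, was dim in PLC/PRF/5 and at the floor on all 12 SNU-449 arrays. Its levels in PLC/PRF/5 controls were -3.55, -3.26 and -3.13, with 2 of 3 arrays well above background. The controls did not overlap, and PLC/PRF/5 was at least 1.68-fold brighter.

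The neighbours on chromosome 9 followed the same split. MTAP, an enzyme of methionine salvage that lies beside CDKN2A, was well above background on 12 of 12 PLC/PRF/5 arrays and on 0 of 12 SNU-449 arrays with each of its 3 probes. Its brightest probe was at least 23.8-fold brighter in PLC/PRF/5 controls. DMRTA1, on the far side of CDKN2B, was well above background on 12 of 12 PLC/PRF/5 arrays and 0 of 12 SNU-449 arrays, and its controls were at least 2.97-fold brighter in PLC/PRF/5. The 4 probes of the antisense RNA CDKN2B-AS1 were at the floor on all SNU-449 arrays and well above background on 0 to 9 of the 12 PLC/PRF/5 arrays. In SNU-449 the probes of these 5 genes were thus all at the floor except the CDKN2A probe of accession NM_058197. The arrays measure RNA, and whether the DNA of this region differs between the lines was not tested.

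**Figure D1:**
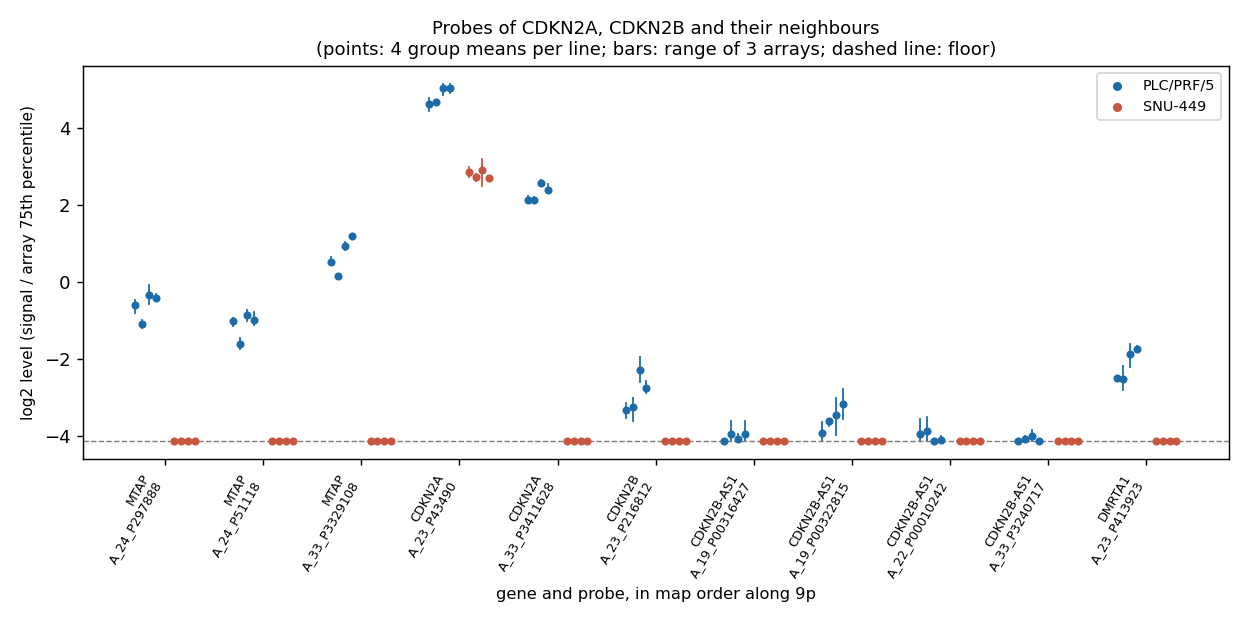
Log2 levels (signal over the array's 75th percentile) of the probes of MTAP, CDKN2A, CDKN2B, CDKN2B-AS1 and DMRTA1 in map order, with 4 group means per line as points, in the order control, TGFb, Galunisertib, both, and the range of 3 arrays as bars. All SNU-449 points lie on the floor of -4.13 except those of the CDKN2A probe A_23_P43490.

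The other INK4 genes ran the opposite way. CDKN2C, the gene of p18, was at 1.52, 1.66 and 1.68 in PLC/PRF/5 controls and 3.49, 3.88 and 3.79 in SNU-449 controls, 2.10 lower on the log2 scale in PLC/PRF/5 (difference -2.10, SE 0.10, adjusted p = 2.1e-13). CDKN2D, the gene of p19, was at 2.11, 2.27 and 2.41 against 3.44, 3.52 and 3.61 (difference -1.26, SE 0.10, adjusted p = 7.8e-10). For both genes all 12 arrays of SNU-449 were above all 12 of PLC/PRF/5.

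Of the CIP/KIP genes, 1 of 4 probes passed between the untreated lines, against 65.4% of all probes. The CDKN1A probe was dim, at -3.90, -3.50 and -3.58 in PLC/PRF/5 controls and at -4.13, -3.95 and -4.06 in SNU-449 controls, where it was well above background on 0 of 3 arrays (adjusted p = 0.079). CDKN1C was at -0.47, -0.91 and -0.39 against -0.79, -0.72 and -0.69 (difference 0.14, 95% interval -0.25 to 0.54). The 2 probes of CDKN1B pointed in opposite directions, with differences of 0.40 (SE 0.15, adjusted p = 0.024) for A_23_P204696 and -0.32 (SE 0.17, adjusted p = 0.097) for A_24_P81841, so no direction is given for p27. The first was 0.03 (adjusted p = 0.93) when arrays were scaled to their medians, and its call was lost without PLC/PRF/5 control replicate 1 or 2 or SNU-449 control replicate 2 or 3 (adjusted p = 0.066 to 0.092).

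MYC was higher in SNU-449. Its probe was spotted 10 times on each array, and 7 to 10 spots were used, with an SD over spots of 0.05 to 0.28. Controls read 2.28, 2.41 and 2.49 in PLC/PRF/5 and 4.11, 4.11 and 4.33 in SNU-449, a difference of -1.79 (SE 0.16, adjusted p = 9.1e-09, 3.46-fold). Ordered by mean, the 4 SNU-449 groups came first, from control at 4.18 over TGFb + Galunisertib at 4.15 and Galunisertib at 4.05 to TGFb at 3.85, followed by the PLC/PRF/5 groups TGFb + Galunisertib at 3.28, Galunisertib at 2.76, control at 2.40 and TGFb at 1.62. The ranges of neighbouring groups overlapped among the first 3 and between PLC/PRF/5 TGFb + Galunisertib and Galunisertib, and not elsewhere in this order.

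Of 21 tested genes of cyclins, CDKs and the RB/E2F genes below them, 14 were lower in PLC/PRF/5 and 0 were higher, where 65.4% of all probes passed in either direction, with a median of -0.47 where the median of all probes was 0.13. CCNE2, a cyclin E gene, differed by -2.57 (SE 0.10), E2F2 by -1.78 (SE 0.15) and E2F3 by -1.45 (SE 0.12), the last 2 being E2F transcription factors. With the other scalings and background correction, 12 to 14 of these genes were lower and 0 to 3 higher. Among 17 MYC target genes of ribosome and nucleotide synthesis, 7 were higher in PLC/PRF/5 and 4 lower at baseline, with SRM, spermidine synthase, at 1.63 (SE 0.10) and CAD, the first enzyme of pyrimidine synthesis, at -1.16 (SE 0.10), and the sign of the list's median turned with scaling, from 0.43 to -0.08. Of the 10 tested MYC partners, paralogs and antagonists, MYCL, a MYC paralog, was 2.91 (SE 0.17) higher in PLC/PRF/5 and MAX, the partner of MYC, 1.10 lower (difference -1.10, SE 0.09).

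**Figure D2:**
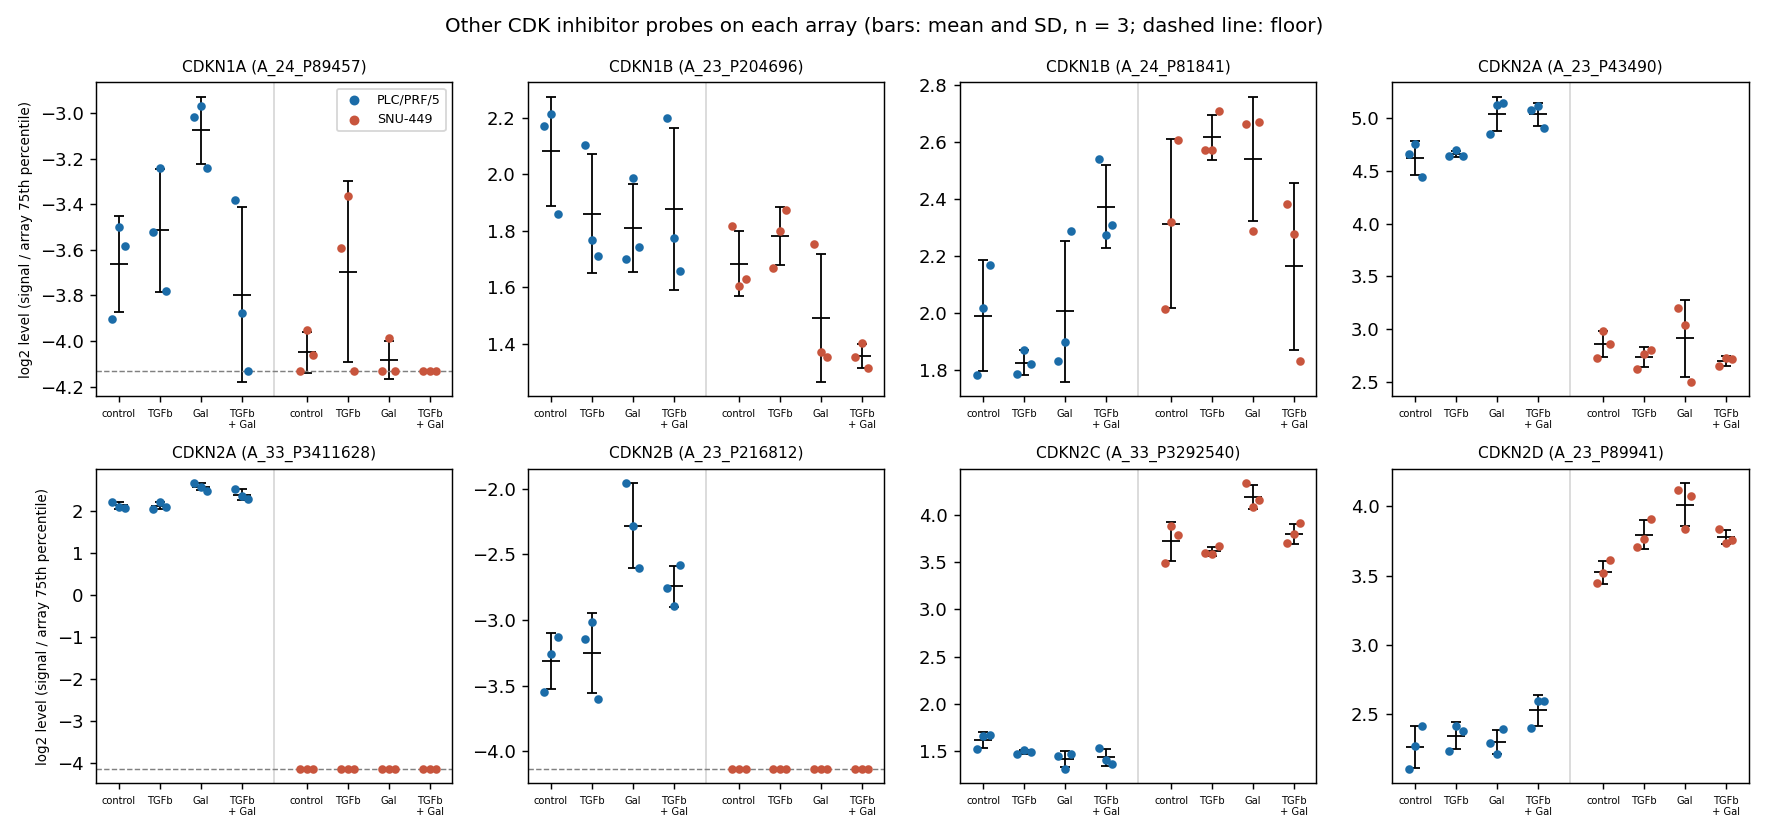
Log2 level (signal over the array's 75th percentile) of the CDK inhibitor probes other than CDKN1C on each array, by line and treatment, with points for arrays, bars for the mean and SD (n = 3) and a dashed line at the floor of -4.13. CDKN2C and CDKN2D are higher on every SNU-449 array, and CDKN2A A_33_P3411628 and CDKN2B are on the floor on all SNU-449 arrays.

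Under TGFb, CDKN1C and MYC were the members that changed in PLC/PRF/5, in opposite directions. CDKN1C, the gene of p57, rose from -0.47, -0.91 and -0.39 in controls to 0.38, 0.19 and 0.40, a difference of 0.92 (SE 0.13, adjusted p = 0.0020, 1.89-fold). The groups did not overlap. MYC fell from 2.28, 2.41 and 2.49 to 1.48, 1.75 and 1.62, a difference of -0.78 (SE 0.20, adjusted p = 0.031). These groups did not overlap either, but the call lay near the threshold. Same-numbered arrays of these groups deviated together, and with the replicate number as a block the adjusted p for MYC was 0.053. It was also between 0.057 and 0.11 when any 1 of the 6 arrays was left out, with differences of -0.84 to -0.71. In all, 2 of 10 probes passed, against 10.5% of the 27044 probes tested in PLC/PRF/5, and at the study's limits 0 passed, against 1.06%.

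The other members showed no change that passed in PLC/PRF/5 under TGFb. CDKN2B read -3.14, -3.01 and -3.60, across the range of its controls (difference 0.06, 95% interval -0.37 to 0.49). CDKN1A read -3.52, -3.24 and -3.78 (difference 0.15, 95% interval -0.29 to 0.59). For the remaining 6 probes the differences lay between -0.22 and 0.08.

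In SNU-449, 0 of the 7 probes that could be tested passed by limma under TGFb, against 8.22% of 25778 probes, and 0 at the study's limits, against 2.14%. CDKN1A, CDKN2B and the p16 probe of CDKN2A were too dim for a test there. CDKN1A read -3.59, -3.36 and -4.13 with TGFb, where 2 of 3 arrays were well above background, against 0 of 3 controls. The 2 groups overlapped. MYC read 3.91, 3.83 and 3.82, below all 3 controls, with a difference of -0.33 (SE 0.11, unadjusted p = 0.014 by limma, adjusted p = 0.11). CDKN2D had an unadjusted p of 0.025 (difference 0.27, adjusted p = 0.15), so 2 of the 7 were under 0.05 before adjustment. CDKN1C moved by 0.20 (95% interval -0.31 to 0.70). The difference between the lines in the TGFb effect was tested directly and passed for 0 of 10 probes, against 6.91% of probes (0 at the study's limits, against 2.03%), with CDKN1C at -0.72 (SE 0.27, unadjusted p = 0.015 by limma, adjusted p = 0.13) and MYC at 0.45 (SE 0.23, adjusted p = 0.31) as SNU-449 minus PLC/PRF/5. The passing of CDKN1C and MYC in PLC/PRF/5 and not in SNU-449 is therefore not shown to be a difference between the lines.

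**Figure D3:**
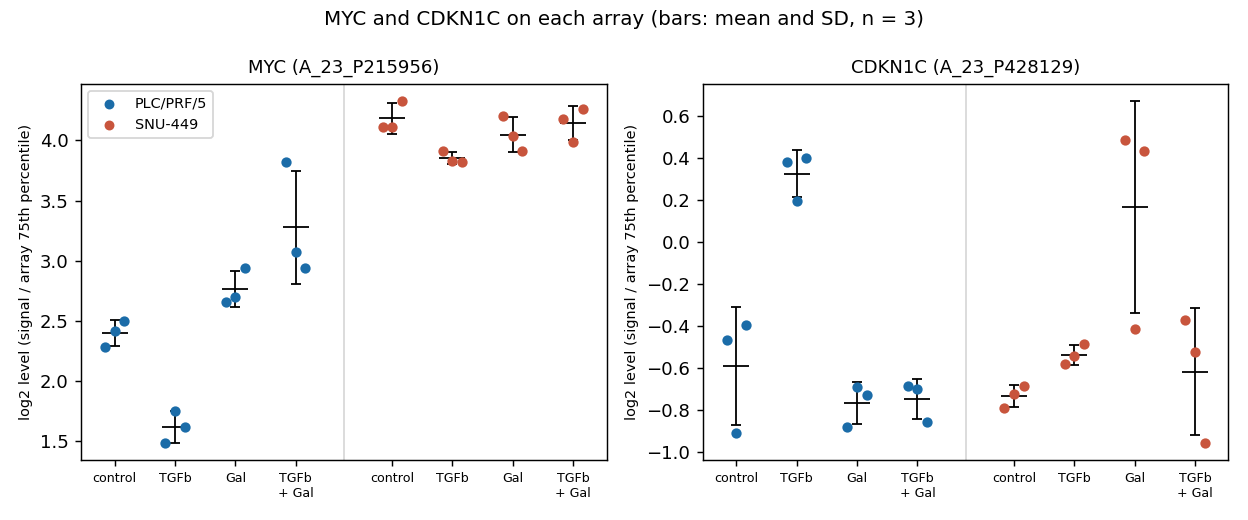
Log2 level (signal over the array's 75th percentile) of MYC and CDKN1C on each array, by line and treatment, with points for arrays and bars for the mean and SD (n = 3). In PLC/PRF/5 the TGFb arrays are the lowest for MYC, at 1.48 to 1.75, and the highest for CDKN1C, at 0.19 to 0.40.

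With Galunisertib alone, 2 probes passed in PLC/PRF/5 and 1 in SNU-449. CDKN2B, in PLC/PRF/5, rose from -3.55, -3.26 and -3.13 in controls to -1.96, -2.28 and -2.60 (difference 1.03, SE 0.19, adjusted p = 0.021, 2.04-fold). Every treated array was above every control. The p16 probe of CDKN2A rose from 2.22, 2.09 and 2.08 to 2.65, 2.58 and 2.49 (difference 0.44, SE 0.09, adjusted p = 0.029), again without overlap. The other CDKN2A probe moved by a like amount, from 4.66, 4.76 and 4.44 to 4.85, 5.13 and 5.14 (difference 0.42, SE 0.11), with an adjusted p of 0.070. In all, 2 of 10 probes passed, against 2.91% of 27044 probes, and 1 at the study's limits, against 0.266%. With normexp background correction the CDKN2B difference was 0.35 (adjusted p = 0.11), and 8 of 18 alternatives lost its call. Both calls were lost without some single arrays, CDKN2B without control replicate 1 or 2 or Galunisertib replicate 1 (adjusted p = 0.069 to 0.070) and CDKN2A without any but control replicate 1 (0.052 to 0.10).

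The remaining PLC/PRF/5 members did not pass with Galunisertib. CDKN1A read -3.01, -2.97 and -3.24, above all 3 controls (difference 0.59, SE 0.20, adjusted p = 0.14). MYC read 2.66, 2.70 and 2.94, also above all controls (difference 0.37, SE 0.20, adjusted p = 0.33). CDKN1C read -0.88, -0.69 and -0.73 (difference -0.18, 95% interval -0.47 to 0.12).

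With Galunisertib in SNU-449, CDKN2D rose from 3.44, 3.52 and 3.61 to 4.12, 3.83 and 4.08 (difference 0.49, SE 0.10, adjusted p = 0.027), without overlap. CDKN2C read 4.33, 4.08 and 4.15 against 3.49, 3.88 and 3.79 in controls (difference 0.47, SE 0.12, adjusted p = 0.054). CDKN1C read 0.48, -0.42 and 0.43, all above its controls but widely spread (difference 0.90, SE 0.23, adjusted p = 0.052). Here 1 of 7 probes passed, against 4.63% of 25778, and 0 at the study's limits, against 1.14%. The CDKN2D call was lost without control replicate 1 or 2 or Galunisertib replicate 1 or 3 (adjusted p = 0.074 to 0.089).

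The test of a line difference in the Galunisertib effect passed for 4 of 10 probes, against 4.46% of 29304 probes, and for 2 at the study's limits, against 1.47%. Of the 4, CDKN2B and the p16 probe of CDKN2A were not measurable in SNU-449, and CDKN2B was also among the 2. As SNU-449 minus PLC/PRF/5, CDKN2C differed by 0.67 (SE 0.14, adjusted p = 0.0067), moving by -0.20 in PLC/PRF/5 and 0.47 in SNU-449. CDKN1C differed by 1.07 (SE 0.27, adjusted p = 0.026), and this call was lost without any 1 of 6 arrays (PLC/PRF/5 control 1 or 3, PLC/PRF/5 Galunisertib 1, SNU-449 control 1, SNU-449 Galunisertib 1 or 3), with adjusted p between 0.058 and 0.068. CDKN2B differed by -1.03 (SE 0.21, adjusted p = 0.0063) and the p16 probe of CDKN2A by -0.44 (SE 0.10, adjusted p = 0.015), but in SNU-449 both were at the floor in every group, so these values restate the PLC/PRF/5 change and say nothing of a response in SNU-449.

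When Galunisertib was added to TGFb in PLC/PRF/5, MYC and CDKN1C moved in opposite directions. MYC rose from 1.48, 1.75 and 1.62 with TGFb to 3.82, 3.07 and 2.94 with both, a difference of 1.66 (SE 0.20, adjusted p = 0.00018, 3.16-fold). Every array with both agents was also above every control. CDKN1C fell from 0.38, 0.19 and 0.40 to -0.69, -0.70 and -0.86, a difference of -1.07 (SE 0.13, adjusted p = 0.00023, 2.10-fold). This comparison and the one of TGFb with control share the TGFb arrays, so their opposite signs are not independent. Both calls held in all 19 alternatives run for them, with MYC between 1.39 and 1.84 and CDKN1C between -1.24 and -0.80.

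Smaller rises came with them. The A_24_P81841 probe of CDKN1B rose from 1.79, 1.87 and 1.82 to 2.54, 2.27 and 2.31 (difference 0.55, SE 0.14, adjusted p = 0.012), while the other CDKN1B probe moved by 0.02 (95% interval -0.35 to 0.38), so the probes of p27 again disagreed. The CDKN2A probes rose by 0.38 (A_23_P43490, SE 0.11, adjusted p = 0.023) and 0.27 (A_33_P3411628, SE 0.09, adjusted p = 0.042). Both CDKN2A calls were lost when arrays were scaled to the 75th percentile of the probes well above background on all arrays, which gave 0.20 (adjusted p = 0.19) and 0.09 (adjusted p = 0.40). They were lost, too, without any 1 of the 3 TGFb arrays or of replicates 1 and 2 with both agents (adjusted p = 0.051 to 0.073 and 0.051 to 0.14). CDKN2B read -2.76, -2.89 and -2.58, above all TGFb arrays (difference 0.51, SE 0.19, adjusted p = 0.065). In all, 5 of 10 probes passed, against 33.4% of the 27044 probes tested, and 2 at the study's limits, against 2.83%.

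The difference of TGFb + Galunisertib from Galunisertib in PLC/PRF/5 passed for 0 of 10 probes by limma, against 6.45% of probes, while 5 of the 10 had an unadjusted p under 0.05. At the study's limits 0 passed, against 0.451%. CDKN1C moved by 0.02 (95% interval -0.27 to 0.31) and MYC by 0.51 (SE 0.20, adjusted p = 0.13). CDKN1A was -3.38, -3.88 and -4.13 with both agents against -3.01, -2.97 and -3.24 with Galunisertib (difference -0.72, SE 0.20, adjusted p = 0.056). The interaction, which is how much the TGFb effect changed when Galunisertib was present, passed for CDKN1C at -0.90 (SE 0.19, adjusted p = 0.025) and MYC at 1.29 (SE 0.28, adjusted p = 0.027), 2 of 10 probes against 5.65%, and 1 at the study's limits against 1.03%. With the replicate block the adjusted p was 0.0501 for MYC and 0.038 for CDKN1C. The MYC call was lost without control replicate 2 or 3, TGFb replicate 1 or 3 or Galunisertib replicate 1 or 2 (adjusted p = 0.054 to 0.074), and the CDKN1C call without TGFb replicate 1 or 3, Galunisertib replicate 2 or replicate 3 with both agents (0.050 to 0.067).

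With both agents against TGFb in SNU-449, 1 of 7 probes passed, against 15.1% of 25778, and 0 at the study's limits, against 3.6%. This was the A_23_P204696 probe of CDKN1B, which fell from 1.67, 1.80 and 1.87 to 1.35, 1.40 and 1.31 (difference -0.42, SE 0.12, adjusted p = 0.042) without overlap. Same-numbered arrays deviated together here too, and with the replicate block its adjusted p was 0.061. It was 0.058 to 0.15 without any 1 of the 6 arrays. The other CDKN1B probe, A_24_P81841, moved by -0.45 (SE 0.19, adjusted p = 0.14). MYC read 4.18, 3.99 and 4.26, above all TGFb arrays (difference 0.29, SE 0.11, adjusted p = 0.11). With both agents against Galunisertib 0 of 7 passed by limma, against 1.55% of probes, with 3 under an unadjusted 0.05. The interaction passed for 0 of 7 by limma, against 1.68%, with 4 under an unadjusted 0.05. At the study's limits both counts were 0, against 0.772% and 1.2%.

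The effect of adding Galunisertib to TGFb differed between the lines for 3 of 10 probes, against 26.1% of 29304, and for 2 at the study's limits, against 6.04%. As SNU-449 minus PLC/PRF/5 these were MYC at -1.37 (SE 0.23, adjusted p = 0.00031), the CDKN1B probe A_24_P81841 at -1.0 (SE 0.24, adjusted p = 0.0044) and CDKN1C at 0.99 (SE 0.27, adjusted p = 0.011). MYC moved by 1.66 in PLC/PRF/5 and 0.29 in SNU-449, and CDKN1C by -1.07 and -0.08.

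**Figure D4:**
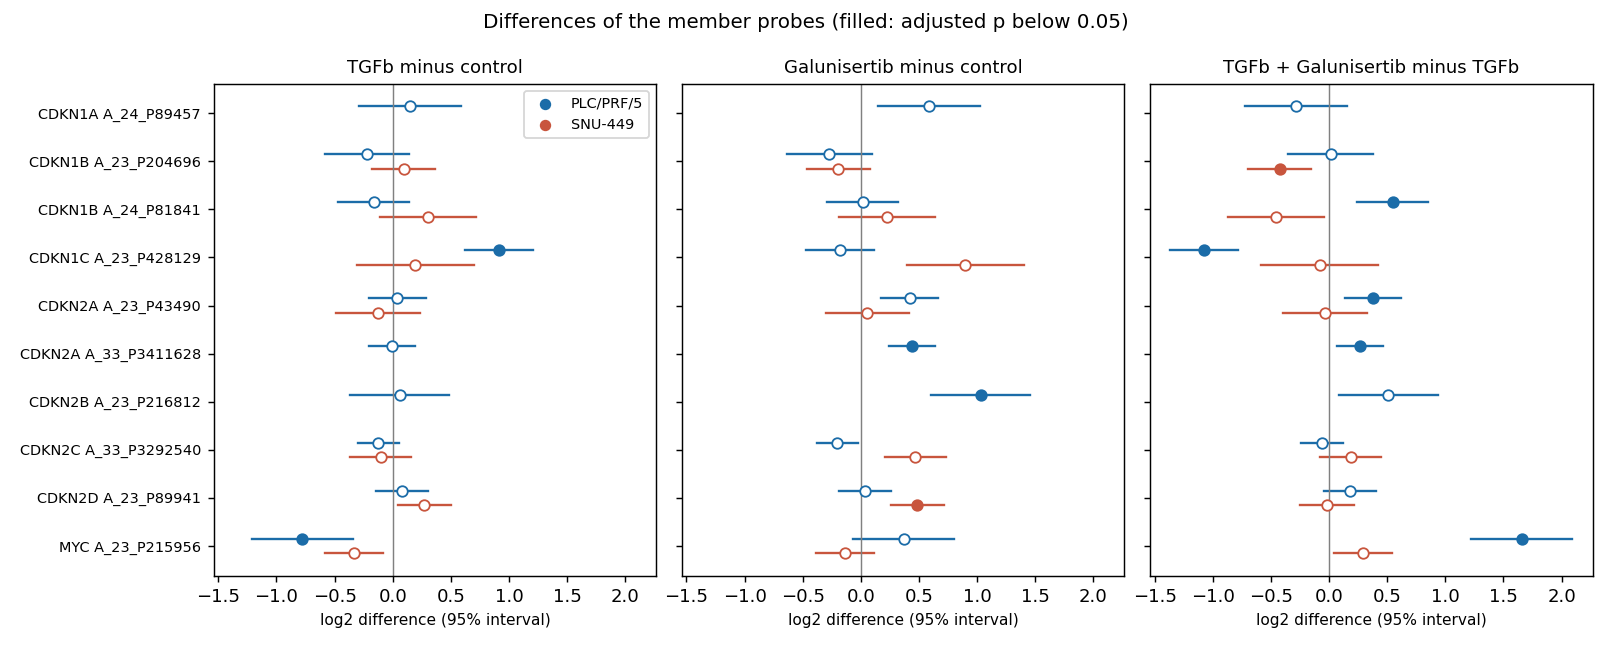
Log2 differences of the 10 probes for 3 comparisons in each line, with 95% intervals from limma and filled points where the adjusted p was below 0.05. Probes too dim to test in SNU-449 have no SNU-449 point. Among PLC/PRF/5 points the widest are those of MYC (1.66) and CDKN1C (-1.07) when Galunisertib was added to TGFb in PLC/PRF/5.

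Known targets of MYC were followed as a list of 17 genes of ribosome and nucleotide synthesis. With TGFb in PLC/PRF/5, 11 of 17 fell and 0 rose (10.5% of all probes passed), with a median of -0.43 where the median of all probes was -0.04. NOP56, a core protein of box C/D snoRNPs, fell by 0.86 (SE 0.10, adjusted p = 0.00053), MYBBP1A, a nucleolar protein, by 0.73 (SE 0.08) and NOP16, a nucleolar protein, by 0.66 (SE 0.07). With Galunisertib alone 5 rose and 0 fell, where 2.91% of all probes passed, with a median of 0.34. The rises were led by MYBBP1A at 0.61 (SE 0.08), RRP9 at 0.52 (SE 0.07) and SRM at 0.49 (SE 0.11). With other scalings and background correction 0 to 5 rose. When Galunisertib was added to TGFb, 15 of 17 rose and 0 fell, where 33.4% of all probes passed, with a median of 0.63 against 0.02 over all probes. These rises were led by ODC1, the first enzyme of polyamine synthesis, at 1.24 (SE 0.13), NOP16 at 1.18 (SE 0.07) and NOP56 at 1.01 (SE 0.10). The TGFb arrays enter this comparison and that of TGFb with control, so opposite signs are not independent, here and for the genes below. The interaction passed for 3 of the 17, all higher, against 5.65% of all probes.

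Of the 17, 0 passed by limma in SNU-449 in each of these 3 comparisons, where 8.22%, 4.63% and 15.1% of all probes passed. The medians were -0.04 with TGFb, 0.02 with Galunisertib and 0.05 with Galunisertib added to TGFb. The difference between the lines passed for 2 of 17 in the TGFb effect (SRM at 0.55 and DKC1 at 0.50), for 1 in the Galunisertib effect (NOP2 at -0.46), and for 12, all lower in SNU-449, when Galunisertib was added to TGFb. Of all probes, 6.91%, 4.46% and 26.1% passed in these tests. With other scalings and background correction the PLC/PRF/5 medians kept their signs, from -0.40 to -0.18 with TGFb and from 0.45 to 0.81 with Galunisertib added. The counts ran from 0 to 11 fallen and from 5 to 15 risen, and the 12 of the line difference from 2 to 13. Without TGFb replicate 1 or 3 of PLC/PRF/5, the count fallen was 7, and without control replicate 2 or Galunisertib replicate 1 the count risen with Galunisertib was 2. Without TGFb replicate 1 of PLC/PRF/5 or TGFb replicate 2 of SNU-449, 7 targets passed in that line difference.

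**Figure D5:**
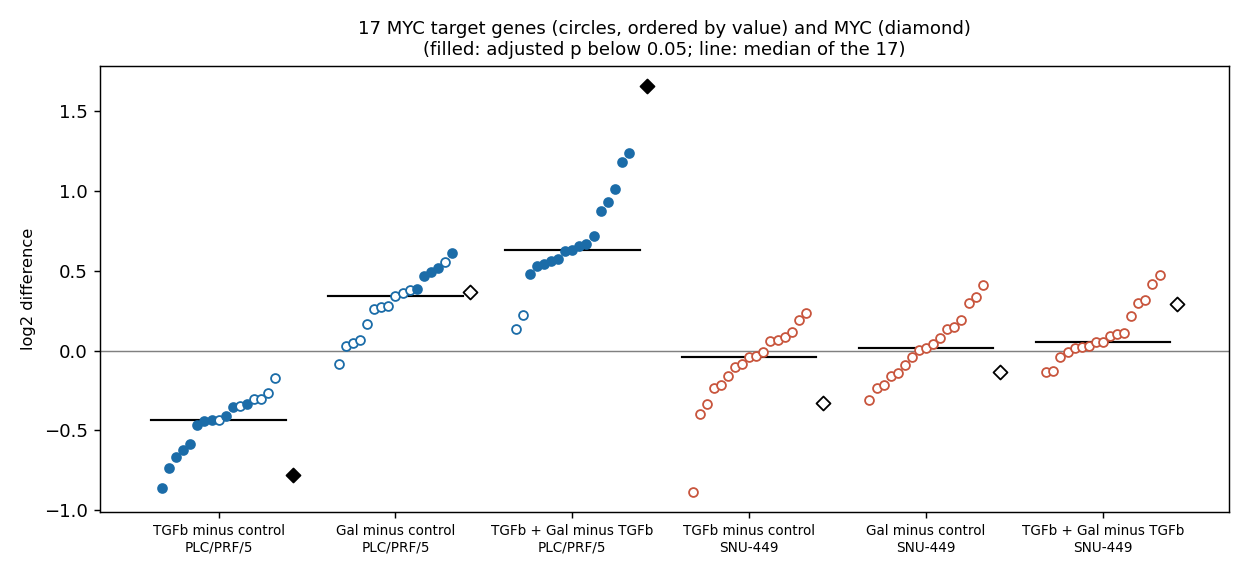
Log2 differences of 17 MYC target genes (circles, ordered by value, filled where the adjusted p was below 0.05), their median (line) and MYC (diamond) for 3 comparisons in each line. In PLC/PRF/5 the medians are -0.43, 0.34 and 0.63, and in SNU-449 -0.04, 0.02 and 0.05.

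Among the partners and antagonists of MYC, MXD4, which competes with MYC for MAX, rose in PLC/PRF/5 with TGFb (0.65, SE 0.11, adjusted p = 0.0051), fell with Galunisertib (-0.53, SE 0.11, adjusted p = 0.035) and fell when Galunisertib was added to TGFb (-1.06, SE 0.11, adjusted p = 9.7e-05). MLX, which pairs with proteins of the same network, moved the other way (-0.35, 0.35 and 0.60, SE 0.08 each). The interaction in PLC/PRF/5 passed for 0 of the 10 tested genes of this list, against 5.65% of all probes. Of 10 tested genes of this list, 2 passed in each of the first 2 comparisons and 5 in the last, where 10.5%, 2.91% and 33.4% of all probes passed. With Galunisertib alone 0 of them passed under the replicate block, and without 1 array 0 rose and 0 to 1 fell, 1 only without control replicate 3. In SNU-449 only MXD3 with Galunisertib passed in these 3 comparisons (0.45, SE 0.09, adjusted p = 0.024), where 8.22%, 4.63% and 15.1% of all probes passed.

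Of the cyclin and CDK list, 2 of 21 genes fell with TGFb in PLC/PRF/5, a share close to the 10.5% of all probes that passed. They were CDC25A, a phosphatase that activates CDKs, by 0.45 (SE 0.09) and CDK4 by 0.29 (SE 0.08). With Galunisertib 0 passed by limma, where 2.91% of all probes passed. When Galunisertib was added to TGFb 12 rose and 0 fell (33.4% of all probes passed), led by E2F2 at 0.65 (SE 0.16), CCNE2 at 0.59 (SE 0.09) and CDC25A at 0.55 (SE 0.09), with a median of 0.29, and 0 to 9 rose and up to 1 fell with other scalings and background correction. Without 1 of the 6 arrays 4 to 12 rose, 4 without TGFb replicate 1. In SNU-449 2 of 21 rose with TGFb and 0 fell, a share close to the 8.22% of all probes that passed. They were the cyclin E genes CCNE2, by 0.48 (SE 0.11), and CCNE1, by 0.42 (SE 0.08). The TGFb effect differed between the lines for these 2 of 21, by 0.65 and 0.50 (adjusted p = 0.0054 and 0.0052), against 6.91% of all probes. When Galunisertib was added to TGFb in SNU-449, 1 of 21 passed, against 15.1%. It was CCNE1, which fell (-0.41, SE 0.08, adjusted p = 0.0076).

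CDKN1A is a target of p53, and 12 other p53 target genes were followed beside it. In PLC/PRF/5 with TGFb 1 rose and 2 fell of 11 tested, among them GADD45A at -0.57 (SE 0.09) and MDM2, the ligase that degrades p53, at -0.38 (SE 0.08), where 10.5% of all probes passed. With Galunisertib added 4 rose and 1 fell, where 33.4% passed, with GADD45A at 1.02 (SE 0.09), MDM2 at 0.64 (SE 0.08) and BBC3 at -0.59 (SE 0.15). In SNU-449 TP53I3, a p53-induced gene, rose with TGFb (1.5, SE 0.10, adjusted p = 1.4e-05) and fell with Galunisertib added (-1.68, SE 0.10, adjusted p = 3.7e-06), while GADD45A moved by -0.74 and 0.67 (SE 0.13 each).

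Genes beside CDKN1C and CDKN2B were followed in the same comparisons. In PLC/PRF/5, 1 of 4 tested neighbours of CDKN1C rose with TGFb and 1 with Galunisertib. With Galunisertib added to TGFb 1 rose and 2 fell. Of 3 tested neighbours of CDKN2A and CDKN2B, 1 fell, 1 rose and 2 rose in these 3 comparisons. Of all probes, 10.5%, 2.91% and 33.4% passed in them. In SNU-449 1 of 4 neighbours of CDKN1C rose with Galunisertib added to TGFb, where 15.1% of all probes passed. CDKN1C lies in an imprinted cluster on chromosome 11. By its probe A_23_P150609, IGF2 was not well above background on any PLC/PRF/5 control array and rose at least 4.81-fold with TGFb (adjusted p = 4.9e-05). It fell by 1.80 when Galunisertib was added (SE 0.18, adjusted p = 8.0e-05). The other IGF2 probe, A_23_P421379, was at the floor on all 12 PLC/PRF/5 arrays and well above background on 0 of 12 SNU-449 arrays, so the rise rests on 1 probe. PHLDA2 rose by 0.96 with Galunisertib (SE 0.12) and by 0.97 when it was added to TGFb (SE 0.12). KCNQ1OT1, the long antisense RNA of the cluster, fell by 0.54 in PLC/PRF/5 and rose by 1.40 in SNU-449 when Galunisertib was added to TGFb (SE 0.15 and 0.37, adjusted p = 0.018 and 0.031). H19 gave no passing call in these comparisons and KCNQ1 was at the floor on all 24 arrays. On chromosome 9, MTAP by its brightest probe fell with TGFb (-0.36, SE 0.09, adjusted p = 0.024), rose with Galunisertib (0.41, SE 0.09, adjusted p = 0.034) and rose when it was added to TGFb (1.03, SE 0.09, adjusted p = 2.5e-05) in PLC/PRF/5, where DMRTA1 rose in the last of these too (0.78, SE 0.17, adjusted p = 0.0051). With Galunisertib the other MTAP probes had means of -0.34 (A_24_P297888, control -0.59) and -0.85 (A_24_P51118, control -1.03), for which no call is given.

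The genes whose treatment pattern was most like a member's were sought by the root mean square difference over 6 changes from control (3 treatments in each line), among 11777 genes (11778 for CDKN2B) that were well above background on all 24 arrays. For MYC, whose own root mean square change was 0.52, they were GPATCH4 (0.15), LYAR (0.16) and SNHG15 (0.16). For CDKN1C, at 0.54, they were B3GALT4 (0.20), YPEL2 (0.21) and TMEM9 (0.23). For CDKN2B, at 0.48 and constant in SNU-449, they were ITPRIP (0.17), RNH1 (0.19) and DNMBP (0.19). The other 5 probes that passed a treatment comparison moved by 0.21 to 0.27, and their closest genes were HIRA for the p16 probe of CDKN2A, WDR55 for the other CDKN2A probe, UGDH and ST13 for the CDKN1B probes A_24_P81841 and A_23_P204696, and PGRMC1 for CDKN2D. Like CDKN2B, the p16 probe was at the floor on all SNU-449 arrays, so for both the SNU-449 part of the pattern is fixed by the floor.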

How the data were processed

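RNA of 24 cultures was hybridised to one-colour Agilent arrays. The authors deposited the scanner output of Agilent Feature Extraction 10.7.3.1, whose processed signal is a linear intensity after background subtraction, not normalized between arrays. Deposited beside it were log2 values from GeneSpring, where each probe is centred on its median and column medians run from -0.0568 to 0.0570. This table served as an alternative, and over 19267 probes its differences between arrays correlated at 0.999 with those used here, across probes. Normalization before centring is not given in the sources used here.

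Control spots and flagged spots (111 to 216 an array) were left out, spots of 1 probe were averaged, and signals were divided by the 75th percentile of the array's non-control spots, floored and put on the log2 scale. Probes were named through RefSeq accessions (31104 of 58201) and tested where well above background on all arrays of at least 1 group in the fit. limma 3.58.1 in R 4.3.3 was fitted over 12 arrays within a line, or all 24 for comparisons between lines, with Benjamini-Hochberg adjustment over all probes tested. A call was an adjusted p below 0.05. A fold is written "at least" where no array of the dimmer group was well above background: the dimmer mean then uses, per array, the higher of the probe's own value and the weakest signal well above background. Context lists used the brightest probe of each gene, and the genes named are the 3 with the largest change among those passing. The fits were tested on simulated data. The normexp alternative used median spot signals, the mean signals of the plan being not used here. The members and lists were chosen with earlier results of these data known. The study's methods describe the cultures as independent, while the labels give only replicate numbers, and the number of arrays limits the precision. Pairing was read from correlations of same-numbered arrays' deviations, which were over 0.1 for all 3 pairs with TGFb against control in PLC/PRF/5 (0.16 to 0.29) and SNU-449 (0.14 to 0.23) and with both agents against TGFb in SNU-449 (0.11 to 0.26).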

Additional observations from a re-analysis of the deposited data

Results flagged for a closer look

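Effects that differed between the lines by the test of the difference itself, all as SNU-449 minus PLC/PRF/5 on the log2 scale, were these. For Galunisertib against control they were CDKN1C at 1.07 (SE 0.27) and CDKN2C at 0.67 (SE 0.14). The same test passed for CDKN2B at -1.03 (SE 0.21) and the p16 probe of CDKN2A at -0.44 (SE 0.10), but SNU-449 was at the floor throughout, so these values repeat the PLC/PRF/5 change and show no difference between the lines in response. For Galunisertib added to TGFb they were MYC at -1.37 (SE 0.23), the CDKN1B probe A_24_P81841 at -1.0 (SE 0.24) and CDKN1C at 0.99 (SE 0.27). No explanation of these differences was tested.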

How the results depend on the processing

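List counts under other scalings, the block and left-out arrays were added after seeing the data. Over 27 member calls and 542 alternative fits, 0 changed sign, 427 kept their call and 115 lost it. The counts of passing probes moved as follows. With arrays scaled to the median they were 1 for TGFb and 1 for Galunisertib against control in PLC/PRF/5, 0 for the interaction there, 0 for Galunisertib and 0 for both agents against TGFb in SNU-449, and 1 for the line difference in the Galunisertib effect. With no scaling they were 1, 0, 0, 0 and 0 for TGFb, Galunisertib and the interaction in PLC/PRF/5, Galunisertib in SNU-449 and that line difference, and 2 for both agents against TGFb in PLC/PRF/5. Scaling to the percentile of detected probes gave 1 for both agents against Galunisertib in PLC/PRF/5 and 1 for TGFb in SNU-449. Quantile normalization gave 1 for TGFb and 2 for both agents against TGFb in SNU-449 and 5 for the line difference with Galunisertib added to TGFb. Normexp gave 1 for Galunisertib in PLC/PRF/5, 3 for it in SNU-449 and 2 for the line difference in its effect. The authors' value table gave 1 for TGFb in PLC/PRF/5 and 1 for the line difference in the Galunisertib effect. Testing only probes well above background on every array gave 1 in PLC/PRF/5 and 3 in SNU-449 for Galunisertib and 2 for the line difference, and no filter gave 1 for TGFb, 1 for Galunisertib, 3 for both agents against TGFb and 0 for the interaction in PLC/PRF/5 and 0 for both against TGFb in SNU-449. A trended prior gave 3 for Galunisertib in SNU-449. Fitting only the 2 groups gave 0 for Galunisertib in both lines, as did the methods' t-test, which gave 1 for TGFb in PLC/PRF/5. The replicate block gave 1 for TGFb and 1 for the interaction in PLC/PRF/5 and 0 for both against TGFb in SNU-449. At a fold above 2 and P below 0.001 the counts were 0 for TGFb, 1 for Galunisertib, 2 for both against TGFb and 1 for the interaction in PLC/PRF/5, 0 for Galunisertib and 0 for both against TGFb in SNU-449, and 2 for the line difference in the Galunisertib effect. Leaving out 1 array gave 6 to 8 at baseline, 1 for TGFb, 0 to 1 for Galunisertib, 3 to 5 for both agents against TGFb, 0 to 1 for both against Galunisertib and 0 to 3 for the interaction in PLC/PRF/5. The same comparisons in SNU-449 gave 0 to 1, 0 to 3, 0 to 1, 0 to 1 and 0 to 1. The line differences gave 0 for TGFb, 3 to 5 for Galunisertib and 3 to 5 for Galunisertib added to TGFb. Apart from arrays left out, which leave fewer samples, the cause of these shifts was not tested. The median of all probes at baseline was 0.13 as scaled and between -0.21 and 0.26 under other scalings, against which the member differences may be read.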
